A study of Mus musculus with 9 samples.

Results

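Gene expression after 1 h without oxygen, glucose and serum was set against normoxia at 1 h in mouse brain microvascular endothelial cells (MBMECs), described over 580 genes. These are the genes whose FPKM averaged 1 or more across the 9 libraries, of 675 in the deposited table. FPKM scales the fragments of a transcript to its length in kilobases and to the fragments mapped in the library. MBMECs are given as a wild-type cell line. At 1 h the groups were normoxia, oxygen and glucose deprivation that also withdrew fetal bovine serum (OGD), and the same deprivation with 3 µM obacunone (OGD+Oba), a limonoid of citrus fruit. OGD and OGD+Oba are called the deprived pair. Normoxia at 3 h and at 6 h was read only to see whether normoxia at 1 h stood apart. Each group was 1 library, so no difference has a replicate check and no test was possible. Both deprived libraries were set against the same normoxia library, so anything particular to that library enters both differences.

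Immediate early genes are transcribed within minutes of a stimulus, without new protein synthesis, from short genes whose mRNAs and proteins are made and lost quickly. Serum factors drive many of them through SRF at CArG boxes and CREB at cyclic AMP response elements, while inflammatory signals act through NF-kB. Their products include transcription factors of the AP-1 and EGR families, and feedback inhibitors such as the dual-specificity phosphatases, Zfp36 and Tnfaip3, which shut the response down. HIF-1, the oxygen-sensing factor, acts on glycolysis, angiogenesis and its own regulators, and its targets in endothelium include Vegfa.

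The deposited table is a selection. The authors' deposited table gives a 6 h log2 ratio of OGD to normoxia of 1 or more in size for all 675 genes. Genes that differed at 1 h and not at 6 h are therefore not analysed here. Normoxia 6 h had a part in that selection, so it is not a neutral check or reference. Sums of FPKM over the listed genes ran from 14198 to 22631 across the 9 libraries, with 17092 in normoxia 1 h, 14198 in OGD 1 h and 14214 in OGD+Oba 1 h. These sums are no measure of depth, which is unknown. The cell type could not be checked, since 1 of 16 endothelial markers was listed. That gene, the VEGF receptor Flt1, had 0.23, 0.26 and 0.11 FPKM in normoxia, OGD and OGD+Oba at 1 h. Cldn4, a tight junction claudin of epithelia, was 1 of 10 epithelial markers listed and had 138, 109 and 107 FPKM. Tubb3 was 1 of 6 neuronal markers listed and had 7.17, 6.76 and 5.26 FPKM, while marker lists of pericytes, astrocytes, microglia, fibroblasts and oligodendrocytes had 0 genes listed. The part of other cells in the differences was not tested.

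At 1 h a small group of genes, mostly early response genes, was lower in the deprived pair than in normoxia. By the same measure, no gene was higher. A gene was counted where log2(FPKM + 1) differed from normoxia 1 h by at least 1, which is 2-fold, in the same direction in both deprived libraries. That held for 13 genes on the lower side, 2.24% of those tested, and for 0 on the higher side (0%). OGD taken alone passed the fold for 18 lower genes (3.1%) and 4 higher genes (0.69%), and OGD+Oba taken alone for 27 lower (4.66%) and 2 higher (0.345%). The 13 genes were Egr1, Cxcl1, Cxcl2, Fos, Fosb, Zfp36, Dusp5, Tnfaip3, Txnip, Dusp1, Atf3, Junb and Plk3. In bulk RNA, fewer cells that make a transcript and less of it per cell cannot be told apart.

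**Figure D1:**
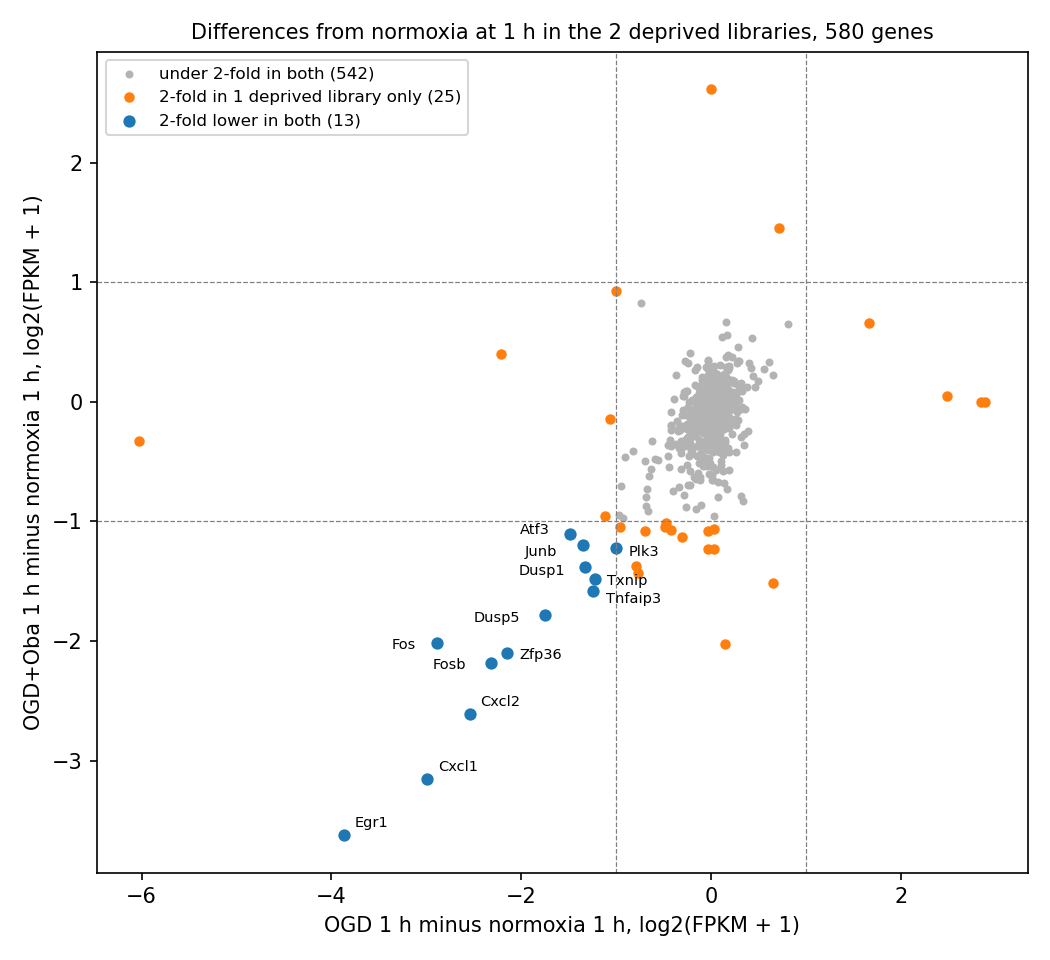
Difference from normoxia at 1 h in log2(FPKM + 1) for each of the 580 genes, OGD on the horizontal axis and OGD+Oba on the vertical axis, with dashed lines at 2-fold. Blue points are the 13 genes at least 2-fold lower in both libraries, orange points the 25 genes past the fold in 1 library only, and the upper right corner beyond both lines is empty.

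The rest of the table lay close to normoxia. The median difference over all 580 genes was -0.01 in OGD and -0.10 in OGD+Oba, with a median size of 0.12 and 0.18. Both differences were under 0.5 in size for 479 genes (82.6%). They were both below 0 for 232 genes (40%) and both above 0 for 124 (21.4%). Between the deprived libraries themselves the median size was 0.17, of the same order as their differences from normoxia. Between normoxia 1 h and the later normoxia libraries the median size was larger, at 0.32 for 3 h and 0.48 for 6 h.

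The transcription factors of the AP-1 and EGR families made up 5 of the 13. Egr1, a zinc finger activator switched on by growth factors and shear stress (NCBI gene 13653, chromosome 18, 34861207 to 34864956, GRCm38.p6), had 179 FPKM in normoxia, 11.4 in OGD and 13.6 in OGD+Oba. Its differences from normoxia on the log2(FPKM + 1) scale were -3.86 in OGD and -3.62 in OGD+Oba, the lowest mean of the pair among the 580 genes. Fold sizes on this scale understate the change of genes with low FPKM. Normoxia at 3 h and 6 h held 5.65 and 10.3 FPKM, so the deprived pair lay below normoxia 1 h and above both later normoxia libraries.

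Fos, a leucine zipper partner in AP-1 (gene 14281, chromosome 12, 85473890 to 85477274), had 105.5 FPKM in normoxia 1 h, 13.4 in OGD and 25.3 in OGD+Oba. It had 3.89 and 4.21 in normoxia at 3 h and 6 h. Its log2 differences from normoxia 1 h were -2.88 and -2.02, and the 0.87 between the deprived libraries was the widest such gap among the 13 genes. Fosb, a close relative (gene 14282, chromosome 7, 19302696 to 19310118), had 12.5 FPKM in normoxia, 1.70 in OGD and 1.97 in OGD+Oba, with 1.11 and 0.17 in later normoxia. Both genes thus had the order normoxia 1 h, deprived pair, later normoxia.

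Junb, an AP-1 subunit with weaker activity than Jun (gene 16477, chromosome 8, 84976909 to 84978748), had 130 FPKM in normoxia, 50.7 in OGD and 56.2 in OGD+Oba. Its later normoxia values of 52.4 and 68.7 overlapped the deprived pair. Atf3, a stress-induced repressor of the ATF family (gene 11910, chromosome 1, 191170296 to 191183333), had 224 FPKM in normoxia, 79.4 in OGD and 104 in OGD+Oba, against 31.9 and 13.2 in later normoxia. Normoxia 1 h was the highest of the 5 libraries for both, and the deprived pair lay between it and later normoxia for Atf3.

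Of the 22 genes on the AP-1 and EGR list, 10 were tested and all 10 were below normoxia in both deprived libraries, as were 40% of all tested genes. Their median difference was -1.08 (-3.74 to -0.29), against -0.05 over all tested genes. The other 5 were under the fold in at least 1 library. Nr4a1, an orphan nuclear receptor induced by growth factors, had 21.7, 13.04 and 9.71 FPKM in normoxia, OGD and OGD+Oba. Ier3, an early gene that affects survival signalling, had 147.8, 76.2 and 90.4. Normoxia 3 h and 6 h were themselves below normoxia 1 h on this list, with median differences of -1.62 and -1.42. Against the normoxia mean, normoxia 3 h and normoxia 6 h the list's median for the pair was -0.14, 0.34 and 0.57.

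Chemokines and brakes of the NF-kB pathway formed the next group, with 3 of the 13. Cxcl1 and Cxcl2 encode chemokines that draw neutrophils and lie 10777 bp apart on chromosome 5. Their promoters, from 250 bases before to 50 after the first listed start, are shown because both hold the same letters of an NF-kB site just upstream of the start. The promoter of Tnfaip3, which encodes the A20 ubiquitin editor that restrains NF-kB signalling, is shown with them. Capitals mark matches to the NF-kB site on either strand. The sequences are from RefSeq GRCm38.p6, read 5′ to 3′ on the gene's strand, at chr5:90890995-90891294 (plus) for Cxcl1, chr5:90903649-90903948 (plus) for Cxcl2 and chr10:19015361-19015660 (minus) for Tnfaip3.
Cxcl1: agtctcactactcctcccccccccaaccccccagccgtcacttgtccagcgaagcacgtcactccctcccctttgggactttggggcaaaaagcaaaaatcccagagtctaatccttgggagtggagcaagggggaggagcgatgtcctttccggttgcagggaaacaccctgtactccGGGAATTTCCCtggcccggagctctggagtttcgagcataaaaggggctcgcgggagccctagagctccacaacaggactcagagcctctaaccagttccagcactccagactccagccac
Cxcl2: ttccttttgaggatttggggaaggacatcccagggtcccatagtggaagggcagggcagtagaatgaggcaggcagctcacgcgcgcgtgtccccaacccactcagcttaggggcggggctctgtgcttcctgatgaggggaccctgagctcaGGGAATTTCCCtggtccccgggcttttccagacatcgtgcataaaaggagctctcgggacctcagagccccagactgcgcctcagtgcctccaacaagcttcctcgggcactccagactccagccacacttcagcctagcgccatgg
Tnfaip3: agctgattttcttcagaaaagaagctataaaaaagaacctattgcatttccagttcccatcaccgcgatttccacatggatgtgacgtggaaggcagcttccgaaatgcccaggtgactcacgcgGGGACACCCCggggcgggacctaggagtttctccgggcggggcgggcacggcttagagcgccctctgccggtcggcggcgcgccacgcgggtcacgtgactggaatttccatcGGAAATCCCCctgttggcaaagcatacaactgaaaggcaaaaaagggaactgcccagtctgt

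Cxcl1 (gene 14825, chromosome 5, 90891245 to 90893121) had 91.9 FPKM in normoxia 1 h, 10.7 in OGD and 9.44 in OGD+Oba. Later normoxia libraries held 13.8 and 14.9 FPKM. Both deprived libraries were below all 3 normoxia libraries. The mean log2 difference was -3.07 against normoxia 1 h but -0.42 and -0.52 against 3 h and 6 h. Cxcl2 (gene 20310, chromosome 5, 90903899 to 90905938) had 23.5 FPKM in normoxia 1 h, 3.21 in OGD and 3.01 in OGD+Oba. Its 2.28 and 3.36 in later normoxia overlapped the pair. The ratio of Cxcl1 to Cxcl2 was 3.91, 3.33 and 3.14 in normoxia, OGD and OGD+Oba at 1 h and 6.04 and 4.42 in later normoxia, so both neighbours were low together in the deprived pair at a similar ratio.

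Tnfaip3 (gene 21929, chromosome 10, 19000910 to 19015410) had 9.03 FPKM in normoxia 1 h, 3.25 in OGD and 2.36 in OGD+Oba. It was below all 3 normoxia libraries, since later normoxia held 5.73 and 4.95. Of 32 genes on the NF-kB and inflammatory list, 11 were tested, 10 were below normoxia in both deprived libraries (40% of all tested genes), and the median was -1.04. Against the normoxia mean, normoxia 3 h and normoxia 6 h the median was -0.38, -0.21 and -0.09. The exception among the 11 was the adhesion molecule Icam1, with 7.80 FPKM in normoxia, 7.75 in OGD and 8.74 in OGD+Oba.

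Other members of that list passed the fold in 1 deprived library. Nfkbia, the inhibitor that holds NF-kB in the cytoplasm, had 42.9, 19.3 and 21.6 FPKM in normoxia, OGD and OGD+Oba, and passed in OGD. The monocyte chemokine Ccl2 had 21.0, 11.9 and 7.17 FPKM and the nuclear inhibitor Nfkbiz 14.2, 7.82 and 4.87. Csf2, the growth factor GM-CSF, had 1.42, 0.75 and 0.20. These 3 genes passed only in OGD+Oba, where each was lower than in OGD. Ccl2 differed from Nfkbia in later normoxia, with 48.8 FPKM at 3 h and 12.05 at 6 h against 18.2 and 14.6 for Nfkbia. The pair was below all normoxia libraries for Ccl2, by a narrow margin at 6 h, and above later normoxia for Nfkbia.

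**Figure D2:**
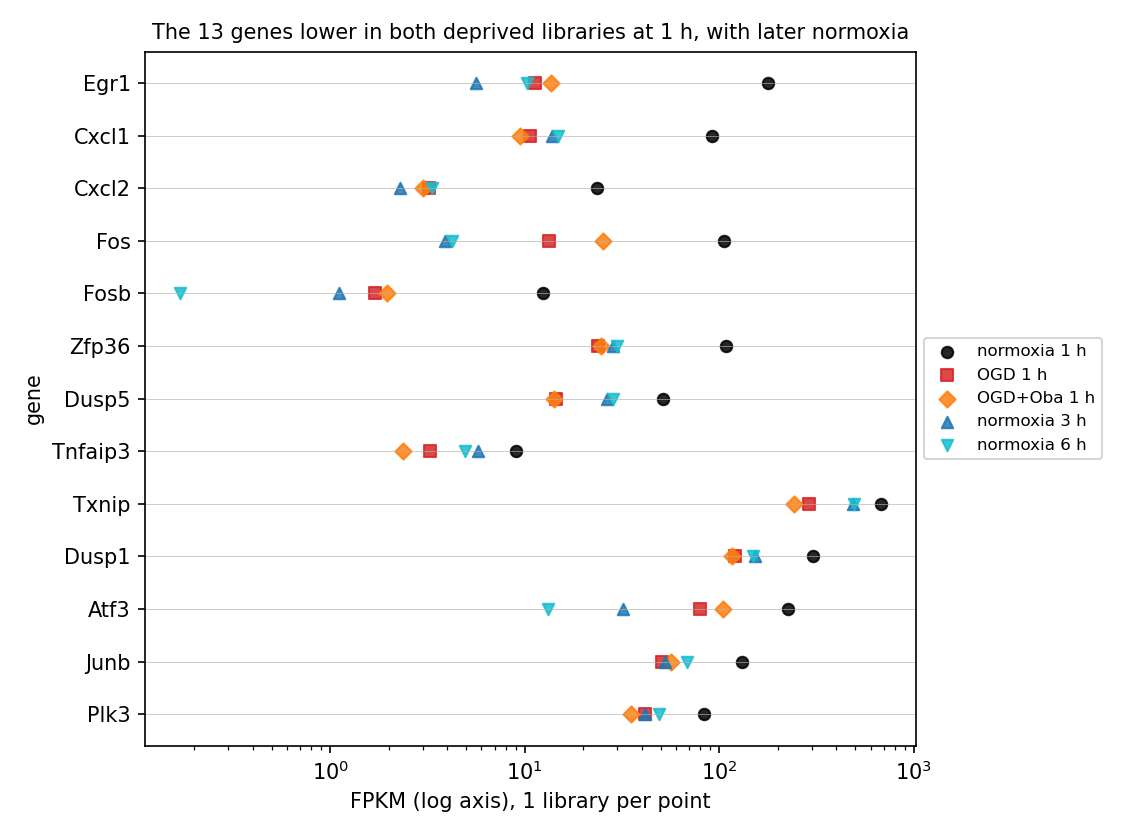
FPKM on a log axis of the 13 genes at least 2-fold lower in both deprived libraries, with 1 point per library for normoxia at 1, 3 and 6 h, OGD 1 h and OGD+Oba 1 h. Normoxia at 1 h is the highest of the 5 libraries for all 13, and the deprived pair lies below the later normoxia libraries for 7, above them for 4 and among them for 2.

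Feedback genes, which follow the first wave and damp it, made up 4 of the 13. The promoters of the RNA-binding protein Zfp36 and of the phosphatases Dusp5 and Dusp1 are shown because they hold a CArG box or TGACGTCA. Among the lower genes with a promoter entry, no other held either in this window. Whether serum withdrawal acted through these letters was not tested. Capitals mark a CArG box in Zfp36 and 2 in Dusp5, and the full cyclic AMP response element TGACGTCA in Dusp1. They are from RefSeq GRCm38.p6 on the gene's strand, at chr7:28379179-28379478 (minus) for Zfp36, chr19:53528895-53529194 (plus) for Dusp5 and chr17:26508423-26508722 (minus) for Dusp1.
Zfp36: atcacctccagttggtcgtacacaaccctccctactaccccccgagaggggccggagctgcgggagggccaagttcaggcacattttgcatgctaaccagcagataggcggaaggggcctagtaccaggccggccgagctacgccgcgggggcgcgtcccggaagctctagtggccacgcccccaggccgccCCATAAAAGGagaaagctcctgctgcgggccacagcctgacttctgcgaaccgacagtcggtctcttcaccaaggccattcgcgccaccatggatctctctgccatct
Dusp5: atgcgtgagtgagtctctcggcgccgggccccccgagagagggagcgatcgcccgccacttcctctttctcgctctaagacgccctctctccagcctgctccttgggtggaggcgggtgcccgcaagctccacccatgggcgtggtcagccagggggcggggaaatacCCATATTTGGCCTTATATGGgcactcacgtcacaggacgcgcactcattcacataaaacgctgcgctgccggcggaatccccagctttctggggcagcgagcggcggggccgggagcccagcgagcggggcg
Dusp1: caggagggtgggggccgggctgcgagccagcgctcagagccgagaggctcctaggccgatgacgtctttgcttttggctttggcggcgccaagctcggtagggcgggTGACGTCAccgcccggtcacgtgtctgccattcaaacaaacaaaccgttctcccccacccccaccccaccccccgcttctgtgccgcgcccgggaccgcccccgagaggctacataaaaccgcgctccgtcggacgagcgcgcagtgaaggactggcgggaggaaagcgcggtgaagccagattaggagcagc

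Zfp36 encodes tristetraprolin, which binds AU-rich elements and speeds the decay of cytokine mRNAs (gene 22695, chromosome 7, 28376784 to 28379228). It had 109 FPKM in normoxia 1 h, 23.7 in OGD and 24.7 in OGD+Oba, with 28.4 and 29.7 in later normoxia. Dusp5, a nuclear phosphatase of ERK (gene 240672, chromosome 19, 53529145 to 53541809), had 51.4 FPKM in normoxia 1 h, 14.6 in OGD and 14.2 in OGD+Oba, with 26.6 and 28.5 in later normoxia. For both genes the deprived pair was below all 3 normoxia libraries, with log2 differences of -2.15 and -2.10 for Zfp36 and -1.75 and -1.79 for Dusp5. Against normoxia 3 h the mean differences were -0.22 for Zfp36 and -0.84 for Dusp5.

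Dusp1, a phosphatase of p38, JNK and ERK (gene 19252, chromosome 17, 26505591 to 26508472), had 303.5 FPKM in normoxia 1 h, 120.8 in OGD and 116 in OGD+Oba. Plk3, a stress-responsive kinase (gene 12795, chromosome 4, 117128655 to 117133963), had 83.7, 41.3 and 35.4 FPKM. Both were below later normoxia as well, which held 153 and 148 FPKM for Dusp1 and 41.5 and 49.0 for Plk3. Plk3 sat at the edge of the fold, with a difference of -1.002 in OGD and -1.22 in OGD+Oba.

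Of 29 genes on the list of delayed feedback genes, 9 were tested, and 8 of the 9 were below normoxia in both libraries (40% of all tested genes) with a median of -0.74. The median was -0.32, -0.09 and -0.15 against the normoxia mean, normoxia 3 h and normoxia 6 h. Klf10, a zinc finger repressor in the TGF-beta response, had 66.2, 40.7 and 37.8 FPKM, below all 3 normoxia libraries. Gadd45b, a stress sensor, was the exception, at 13.7 FPKM in normoxia, 11.1 in OGD and 14.6 in OGD+Oba. Klf4, a factor of endothelial quiescence, had 89.2, 83.5 and 87.2 FPKM and was nearly level.

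Txnip was the only gene of the 13 outside those lists. It encodes an arrestin that limits glucose uptake and is transcribed by Mondo factors when glucose metabolites are plentiful (gene 56338, chromosome 3, 96557957 to 96561857). It had 676 FPKM in normoxia 1 h, 289 in OGD and 242 in OGD+Oba, with 486 and 492 in later normoxia. The pair was below all 3 normoxia libraries. Its mean log2 difference was -1.35 against normoxia 1 h, -0.88 against 3 h and -0.89 against 6 h. The Mondo list had 2 tested members that differed, with Txnip at -1.35 and Arrdc4 at -0.12. Their median of -0.74 described neither, and only 1 of the 2 was below normoxia in both deprived libraries.

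The normoxia libraries were compared among themselves over all 580 genes. Normoxia 3 h was at least 2-fold lower than normoxia 1 h for 31 genes (5.34%) and higher for 16 (2.76%). Normoxia 6 h was lower for 64 (11%) and higher for 21 (3.62%), and both later libraries were higher for 11 (1.9%). Among the listed genes, more passed the fold between normoxia libraries of different times than between either deprived library and normoxia at 1 h. The listed genes all had a 6 h log2 ratio of OGD to normoxia of 1 or more in size. Normoxia 6 h thus had a part in their selection, and its counts are not those of unselected genes. The early response genes were on the side where normoxia 1 h was high.

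Whether the 13 genes set normoxia 1 h apart from later normoxia was read directly. By their choice the 13 were higher in normoxia 1 h than in the deprived pair, and for 13 of 13 normoxia 1 h was also above both later normoxia libraries. It was the highest of the 5 libraries for 124 of all 580 genes (21.4%) and the lowest for 43 (7.41%). The deprived pair was below all 3 normoxia libraries for 7 of 13, against 97 of 580 (16.7%). It was above later normoxia for Egr1, Fos, Fosb and Atf3, and it overlapped later normoxia for Cxcl2 and Junb. For 7 of 13, both normoxia 3 h and normoxia 6 h were at least 2-fold below normoxia 1 h, which held for 27 of 580 genes (4.66%). The 13 were picked on a high normoxia 1 h value, which favours each of these counts. The shares over all genes are therefore no like comparison. Summed over the 13 genes, FPKM was 2000 in normoxia 1 h, 663 in OGD, 648 in OGD+Oba, 852 in normoxia 3 h and 867 in normoxia 6 h. Over the other tested genes the sums were 15043, 13488, 13528, 14207 and 13915, a narrower span. With the mean of the 3 normoxia libraries as reference, 2 of the 13 were still 2-fold lower in both deprived libraries, Cxcl1 and Dusp5. Against normoxia 3 h the pair was 2-fold lower for 14 genes (2.41%) and higher for 13 (2.24%), and against normoxia 6 h lower for 16 (2.76%) and higher for 27 (4.66%). With either as reference, 0 of the 13 were among the lower genes, and Egr1, Fos, Fosb and Atf3 were higher in the pair. A low value in the deprived pair and a high value in the single normoxia 1 h library cannot be told apart for these genes.

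The deprived libraries differed from each other by 0.04 to 0.87 on the log2 scale over the 13 genes, with a median of 0.16. OGD+Oba held the higher value for 6 of them, and over all tested genes its median difference from OGD was -0.08. The authors' 1 h ratios of OGD+Oba over OGD also put Cxcl2, Dusp5 and Dusp1 on the higher side, at 0.04, 0.10 and 0.09. Fos was at 1.06 there, while Cxcl1, Tnfaip3, Txnip and Plk3 stayed below 0. The count thus differs between the 2 scales. In the authors' deposited table the 1 h log2 ratios of OGD over normoxia for the 13 ran from -4.01 for Egr1 to -1.05 for Plk3.

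What the 13 share beyond their values was described against all tested genes. Their span in the genome had a median of 3750 bp (1840 to 14501), against 16736 bp over 576 tested genes with a position. The span was under 5000 bp for 8 of 13 (61.5%) and for 104 of all (18.1%). The median number of exons was 4 against 7, over 564 genes with a coding transcript. The 3′ UTR was shorter at the median, 815 bp against 1217, but held more copies of the AU-rich core ATTTA, at a median of 3.88 per kb against 1.44. The longer motif TATTTAT was present in 9 of 13 (69.2%) and 190 of all (33.7%), with 7 copies in Cxcl2, 6 in Cxcl1 and 0 in Egr1, Dusp5, Txnip and Junb. Genes annotated to the nucleus numbered 11 of 13 (84.6%), against 42.1% of all.

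**Figure D3:**
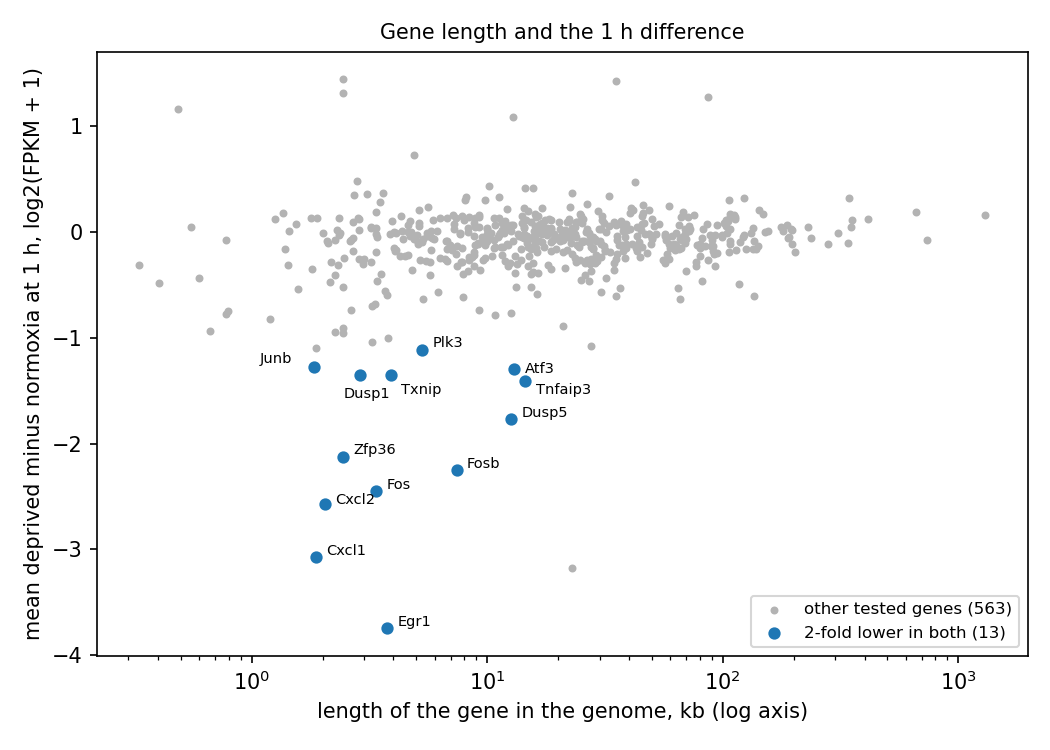
Length of each gene in the genome (kb, log axis) against the mean difference of the deprived pair from normoxia at 1 h in log2(FPKM + 1). The 13 genes at least 2-fold lower in both libraries, in blue, span 1840 to 14501 bp, against a median of 16736 bp over all tested genes.

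Promoters were found in the RefSeq table for 12 of the 13 and for 480 of the tested genes, and 5 motifs were searched on both strands. Egr1 and Txnip were the lower genes with no match, and the gene without an entry was among them. The shares therefore do not cover all 13. The cyclic AMP response core TGACG, which also lies within TGACGTCA, was in 9 of 12 (75%), 22.9% of tested genes and 20.8% of all RefSeq promoters. The NF-kB site was in 5 of 12 (41.7%), 11.2% and 8.46%. The CArG box was in 2 of 12 (16.7%), 3.54% and 1.63%, and TGACGTCA in 1 of 12 (8.33%), 2.92% and 1.79%. The E-box CACGTG was in 2 of 12 (16.7%), 10.4% and 7.15%. In Cxcl1 the NF-kB letters lay from 71 to 61 bases before the start and in Cxcl2 from 97 to 87 bases before it. These matches describe letters in a window from 250 bases before to 50 after the start and do not show binding. Sites further from the start were not counted.

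Below the 2-fold limit, another 13 genes were at least 1.5-fold lower in both libraries, bringing those lower by 1.5-fold to 26 (4.48%). Hes1, a Notch effector, had 28.7, 14.2 and 14.4 FPKM in normoxia, OGD and OGD+Oba and lay just short of 2-fold. Ccn2, a secreted matricellular factor that YAP induces, had 813, 510 and 489. For Ccn2 the pair was below all 3 normoxia libraries. Pim1, a survival kinase, had 10.1, 6.05 and 6.19 FPKM, and Cxcl10, an interferon-induced chemokine, 2.02, 0.59 and 0.54. Ier3, Klf10, Pim1, Cxcl10, Icam1, Gadd45b, Klf4, Egln3 and H4c9 were named after their values were seen.

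Of 17 YAP and SRF targets, 3 were tested, Ccn2, Ankrd1 and Amotl2, with a median of -0.39. Of these 0 passed the fold, against 2.24% lower and 0% higher over all tested genes. All 3 were lower in the pair than in every normoxia library, which held for 16.7% of all tested genes. Ankrd1, a mechanical stress gene, had 215 FPKM in normoxia 1 h, 160 in OGD and 166 in OGD+Oba, with 173 and 217 in later normoxia. Amotl2, an angiomotin that binds YAP, had 31.2, 27.0 and 27.7 FPKM, with 42.1 and 44.3 in later normoxia. Later normoxia was higher than normoxia 1 h at the list's median, by 0.42 and 0.19. The list's median was -0.61 against normoxia 3 h and -0.68 against normoxia 6 h, so the 3 genes were lower than normoxia whichever library was the reference.

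HIF-1 targets were close to normoxia at 1 h, as were most tested genes. Of 32 on the list 22 were tested, and the median was 0.03 (-0.30 to 0.73). The fold was passed by 0 in either direction, against 2.24% lower and 0% higher over all tested genes. For 21 of the 22 both differences were under 0.5 in size, as for 82.6% of all tested genes. Vegfa had 19.1 FPKM in normoxia 1 h, 18.5 in OGD and 15.5 in OGD+Oba. The glucose transporter Slc2a1 had 135, 129 and 129 FPKM, and the oxygen sensor Egln3 62.6, 68.6 and 72.4. In later normoxia Vegfa had 7.01 and 7.74 FPKM, Slc2a1 107.5 and 71.2, and Egln3 42.7 and 18.4.

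The pair was above both later normoxia libraries for 17 of the 22 HIF-1 targets, against 32.2% of all tested genes. It was above all 3 normoxia libraries for 8, against 10.7% of all. Normoxia 1 h itself was higher than normoxia 3 h for 18 of 22 and than normoxia 6 h for 19. The medians of the later libraries against it were -0.33 and -0.72, and -0.08 and -0.06 over all tested genes. The same count over all tested genes was not made. Like all listed genes, these were selected on a ratio to normoxia 6 h. Against normoxia 3 h and 6 h the list's median for the deprived pair was 0.43 and 0.82, against 0.03 with the matched library. Ppp1r3c, which targets a phosphatase to glycogen, was the furthest above normoxia 1 h, with 1.19 FPKM in normoxia, 2.85 in OGD and 2.43 in OGD+Oba, and 0.50 and 0.79 in later normoxia. Ankrd37, an ankyrin repeat gene induced by hypoxia, had 3.76, 4.39 and 5.23 FPKM, with 0.71 and 0.12 in later normoxia. Hilpda, a lipid droplet protein, was lowest on the list, with 273, 204 and 239, and was below later normoxia at 331 and 251.

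**Figure D4:**
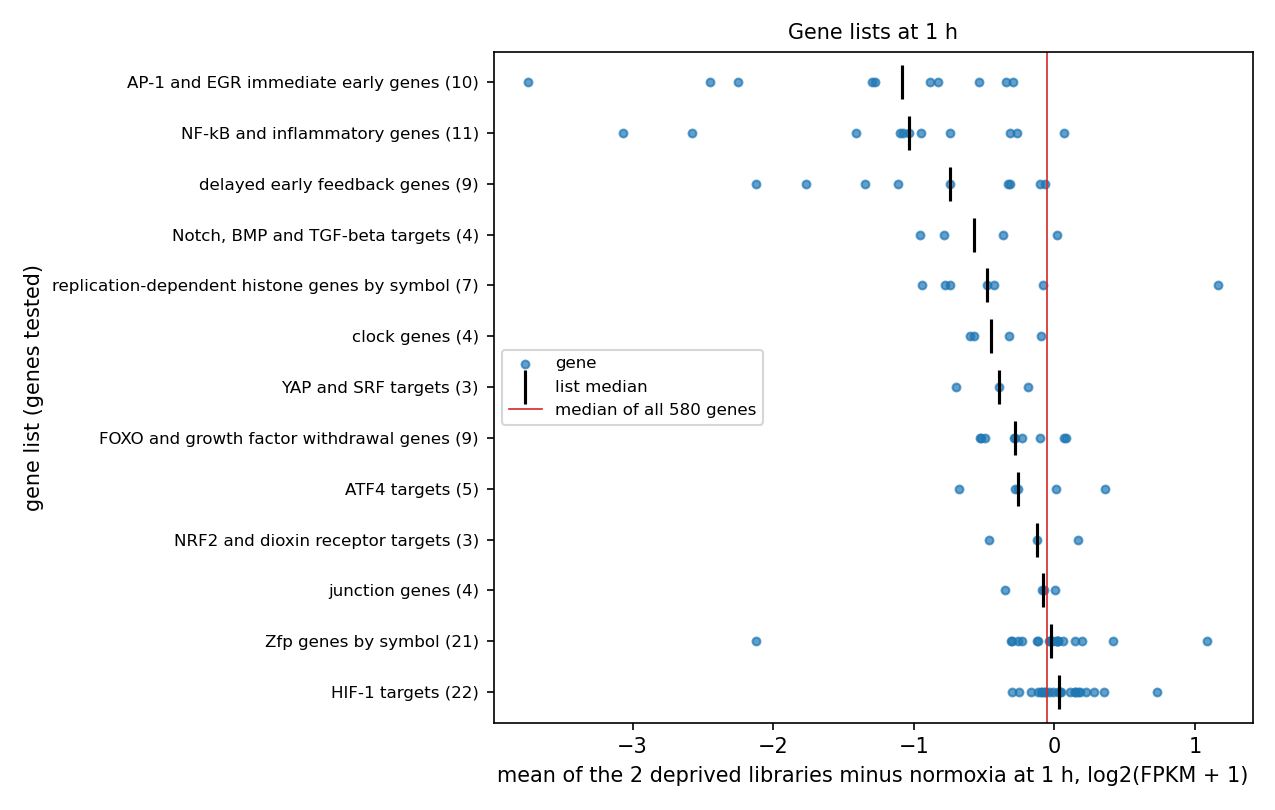
Mean difference of the deprived pair from normoxia at 1 h in log2(FPKM + 1) for each tested gene, by list, with the list median as a black bar and the median of all 580 genes, -0.05, as a red line. The early response and NF-kB lists have medians of -1.08 and -1.04, and the HIF-1 targets have a median of 0.03.

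On the higher side, 3 genes reached 1.5-fold in both libraries (0.517%). Besides Ppp1r3c these were Zfp967 and the histone gene H3c10. Zfp967 had 0.03, 0.69 and 1.83 FPKM, and all of its 31-base words also occur in other genes. H3c10 was listed at 0 in normoxia 1 h and at 2.18 and 0.58 in OGD and OGD+Oba, with 94.2% of its words shared. Reads of these genes could be split with near-identical copies, so their values are uncertain. Sp5, a zinc finger factor of the Wnt response, was above all 3 normoxia libraries, at 9.60, 13.3 and 14.4 FPKM.

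The FOXO and growth factor withdrawal list had 9 of 15 tested, 7 below normoxia in both libraries and 2 above, with a median of -0.28. The median was 0.05, 0.25 and 0.64 against the normoxia mean, normoxia 3 h and normoxia 6 h. Sgk1, a serum-induced kinase, had 706, 521 and 484 FPKM, and Cited2, a coactivator regulator, 46.7, 31.4 and 33.0. For both the pair was above later normoxia, which held 404 and 423 FPKM for Sgk1 and 16.2 and 13.8 for Cited2. The ATF4 list had 5 of 15 tested, 3 below normoxia in both libraries and 1 above, with a median of -0.26 that was 0.12 against normoxia 6 h. Ppp1r15a, which restarts translation, had 70.7, 37.3 and 51.2, while Chac1, a glutathione-degrading enzyme, had 0.78, 1.35 and 1.23. For these lists 0 tested members passed the fold in both libraries, against 2.24% lower and 0% higher over all tested genes. Of all tested genes, 40% were below normoxia in both libraries and 21.4% above in both.

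Small lists had few tested members. The clock list had 4 of 15 tested, all below normoxia in both libraries, which held for 40% of all tested genes, with a median of -0.45. The median was 0.36, 0.59 and 0.84 against the normoxia mean, normoxia 3 h and normoxia 6 h. The 4 genes were Ciart, Cry2, Nr1d1 and Dbp, repressors and an output factor of the circadian loop. Nr1d1 had 13.96, 11.4 and 10.6 FPKM in normoxia, OGD and OGD+Oba at 1 h, and 2.54 and 3.05 in later normoxia. The Notch, BMP and TGF-beta list had 4 of 15 tested and a median of -0.57, which was 0.09, 0.42 and 0.22 against the same 3 references. The NRF2 and dioxin receptor list had 3 of 11 and a median of -0.13, which was 0.39, 0.18 and 0.16. The junction list had 4 of 16 and a median of -0.08, which was -0.35 and -0.31 against the normoxia mean and normoxia 3 h. Zfp genes taken by symbol numbered 21 of 23 with a median of -0.02, and Zfp36 was the 1 past the fold. The Zfp median was -0.17 against the normoxia mean and -0.21 against normoxia 3 h. The p53 target Cdkn1a, the chaperone gene Dnajb1 and the mitotic kinase Aurka were each the single tested member of their lists, with differences of -0.24, -0.23 and -0.04. Sterol genes had 0 tested members. Scaling by median ratios moved the median of all genes from -0.05 to 0.05, and the junction and Zfp medians with it to 0.03 and 0.07.

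Genes past the fold in 1 deprived library only numbered 25 (4.31%). Of these, 9 passed in OGD and 16 in OGD+Oba. Predicted genes made up 11 of the 25, against 36 of all 580 tested genes. Of the 25, 8 were listed at 0 in at least 1 library at 1 h. Over all tested genes 5, 4 and 4 were listed at 0 in normoxia, OGD and OGD+Oba at 1 h. At least 50% of 31-base words were shared with other genes for 8 of the 9 in OGD and 4 of the 16 in OGD+Oba. That held for 36 of the 571 tested genes whose words were compared. Among named genes, Ptbp2, a neuronal splicing regulator, had 11.2, 10.9 and 4.20 FPKM in normoxia, OGD and OGD+Oba. Far2, a fatty acyl reductase, had 3.54, 3.64 and 0.93, H60b, a ligand of natural killer receptors, 13.7, 14.02 and 6.06, and Arrdc3, an arrestin, 31.5, 22.3 and 14.7. Ptbp2, Far2 and H60b were low in OGD+Oba alone among the 1 h libraries, while Arrdc3 was also lower in OGD.

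All 7 replication-dependent histone genes taken by symbol were tested. Of these, 3 were below normoxia in both deprived libraries and 1 was above in both, against 40% and 21.4% of all tested genes. The median difference was 0.15 in OGD and -0.87 in OGD+Oba. The median of the pair was -0.48 against normoxia 1 h, and 0.13, 0.16 and 1.05 against the normoxia mean, normoxia 3 h and normoxia 6 h. H3c14 had 3.07 and 3.51 FPKM in normoxia and OGD and was listed at 0 in OGD+Oba, while H4c9 had 36.1, 33.6 and 19.4. H3c14 and H2ac19 share all of their words with other genes. At the floor itself, Zkscan7 and Pik3c2b lay just inside, with mean values of 1.00 and 1.01 FPKM, and Adm and LOC115489690 just outside, with 0.982 and 0.987.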

How the data were processed

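RNA-seq was measured in 9 libraries, 1 per group, and 3 of them carry the 1 h comparison. The authors deposited 1 table with FPKM per gene and library, per the file headers, and the authors' log2 ratio for pairs of libraries. HISAT2 2.0.4 and GRCm38 are named in the submitters' processing notes. The read counter and its strand setting are not given in the sources used here. Nothing states whether the libraries came from separate cultures. No interval for counting error is given, because depth is unknown.

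FPKM was taken as log2(FPKM + 1), with a pseudocount of 1 and a floor of 1 FPKM on the mean over the 9 libraries. A gene was counted where the size of the difference was at least 1 (2-fold) in both deprived libraries. Genes named were those counted in both, the 10 highest and 10 lowest by mean difference, genes counted in 1 deprived library only, up to 4 per list, 7 fixed genes, and 2 on each side of the floor. Predicted genes were passed over. The genes and lists were chosen with earlier results of these data known, and results for some genes are not reported here. No test was run, and p-values were not computed.

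Positions came from RefSeq GRCm38.p6 for 576 genes by gene identifier, and promoters for 480 by the first listed start. Exons, the 3′ UTR and 31-base words came from GENCODE M21 transcripts, the UTR from the transcript with the longest coding sequence, and words were matched on the same strand to transcripts of other genes. Counting was tested on simulated data. Alternatives were 1.5-fold, no floor or one at 5 FPKM, 0.1 as the pseudocount, scaling by median ratios, the authors' scaling (a shift to match their log2 ratio), each deprived library alone, predicted genes left out, and the mean of 3 normoxia libraries. Normoxia 3 h or 6 h as reference and dropping genes that share 50% or more of their words were added after the data were seen. Python 3.11.15, numpy 2.4.6, pandas 2.3.3 and matplotlib 3.10.9 were used.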

Additional observations from a re-analysis of the deposited data

Results flagged for a closer look

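For 5 of the 13 genes lower at 1 h, both deprived libraries at 3 h were at least 2-fold above normoxia 3 h. The direction against the matched normoxia library was thus opposite at the later time. The mean log2 difference from normoxia was -3.74 at 1 h and 3.63 at 3 h for Egr1, -2.45 and 2.34 for Fos, and -2.57 and 2.26 for Cxcl2. It was -1.30 and 1.73 for Atf3, and -1.27 and 1.64 for Junb. The normoxia reference also differed between 1 h and 3 h, with 179 and 5.65 FPKM for Egr1 and 105.5 and 3.89 for Fos. It held 23.5 and 2.28 for Cxcl2, 224 and 31.9 for Atf3, and 130 and 52.4 for Junb. Against normoxia 3 h the mean of the 1 h deprived pair was already higher, by 1.02, 1.99, 0.33, 1.48 and 0.025 in that order. The difference between the times was not tested, with 1 library per group. Of the other genes, 1 was lower in both deprived libraries at 3 h as well and 7 were past the fold in neither direction. At 3 h 77 of the 580 genes were higher in both and 33 lower.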

How the results depend on the processing

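With 13 lower genes and 0 higher in the report, the lower count was 26 at 1.5-fold, 27 with OGD+Oba alone and 7 against the mean of the 3 normoxia libraries. The higher count was 3 at 1.5-fold, 2 with a pseudocount of 0.1, 4 with OGD alone, 2 with OGD+Oba alone, 5 against the normoxia mean, 13 against normoxia 3 h and 27 against normoxia 6 h. Lower genes below all normoxia libraries, 7 in the report, numbered 11 at 1.5-fold and 15 with OGD+Oba alone. Higher genes above all normoxia libraries, 0 in the report, numbered 2 at 1.5-fold, 1 with a pseudocount of 0.1, 3 with OGD alone, 1 with OGD+Oba alone, 2 against the normoxia mean, 4 against normoxia 3 h and 10 against normoxia 6 h. Among the genes and list medians past the fold, directions turned only with another reference library. Against the normoxia mean Atf3 was at 0.96 and Fos at 0.48. Against normoxia 3 h the AP-1 and EGR median was 0.34, Atf3 1.48, Cxcl2 0.33, Egr1 1.02, Fos 1.99, Fosb 0.42 and Junb 0.025. Against normoxia 6 h the median was 0.57, Atf3 2.70, Egr1 0.25, Fos 1.90 and Fosb 1.28. The cause was not tested. Median-ratio scaling kept 11 of the 13 and lost Atf3 and Plk3, the authors' scaling lost Atf3, and a floor of 5 FPKM lost Fosb. The clock and histone lists gave no value at that floor. No paired analysis was possible because each group held 1 library, and leaving out a replicate was not possible for the same reason.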
